A study of Mus musculus with 4 samples.

Results

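Cathepsins are the proteases of the lysosome. *Ctsb*, *Ctsc*, *Ctsh*, *Ctsl*, *Ctss* and *Ctsz* encode cysteine proteases, *Ctsd* encodes an aspartic protease, and *Ctsa* encodes a serine carboxypeptidase that also holds β-galactosidase and neuraminidase together in a complex. They are made as inactive precursors, sorted to the lysosome largely by mannose 6-phosphate receptors, and break down material that a cell has taken up. Phagocytes are rich in them, and cathepsin S is best known for trimming the invariant chain from MHC class II molecules in antigen-presenting cells. In the epididymis and vas deferens, the tubes in which sperm mature and are stored, clear cells take up proteins from the lumen, principal cells secrete into it, basal cells lie at the base of the epithelium, and macrophages lie in and around it.

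The 8 genes *Ctsa*, *Ctsb*, *Ctsc*, *Ctsd*, *Ctsh*, *Ctsl*, *Ctss* and *Ctsz* were taken by name from the 16892 genes of a single-cell RNA sequencing study of this tract, and all 8 had UMIs (counted molecules). They were chosen by name, with earlier results of these data known, and not by a threshold on any value. The study made 1 library of 3′ tags from each of the caput, corpus and cauda epididymis and the vas deferens of 4 adult male FVB/NJ mice of 10 to 12 weeks, with 8 pieces of tissue pooled per library after sperm had been washed out. The labels name neither a treatment nor an altered allele, and the same 4 mice gave all the libraries. The libraries held 1433, 2325, 1616 and 3506 cells and between 4408989 and 10744928 UMIs, and 43 cell barcodes occurred in more than 1 library.

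Levels are given as UMIs of a gene in a group of cells per 1000000 UMIs of that group (UPM). A 3′ tag counts a molecule once whatever its length, so levels of different genes are set side by side without a correction for length. Each region is 1 library, so regions have no replicates. Cell types can be compared within each of the 4 libraries, and those values are given, but no test was made of them: an exact paired permutation test over 4 libraries cannot go below a two-sided p of 0.125, and the cell types were themselves defined from these counts. Intervals are 95% intervals that cover counting error only, not differences between animals or dissections, and a ratio was called at 4-fold or more with at least 20 UMIs in the higher group. The cells fall into 34 populations. Membership is that of the study, which clustered these same counts, so ratios between populations are descriptions of them. Some names used here are descriptive: the deposited labels name the low-UMI clear cells for *Krt14* and the low-UMI stromal cells for IL6. Where 4 values follow each other without a name, they are in the order caput, corpus, cauda and vas deferens.

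The 130 macrophages were divided as 7, 24, 21 and 78 cells over the libraries. They fall into 104 cells low in *Trem2* and 26 cells high in *Trem2*, a lipid-sensing receptor. All 7 macrophage markers present in the matrix (*Csf1r*, *C1qa*, *C1qb*, *C1qc*, *Cd14*, *Fcgr3* and *Lyz2*) had UMIs in both, with a sum of 13218 UPM in macrophages as a whole.

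A population of 15 cells that the study placed among the basal cells and named for both basal cells and macrophages was kept apart from both here, a choice made after its values were seen. Its macrophage markers summed to 25762 UPM, above either macrophage population, while the basal markers *Krt5*, *Krt14* and *Itga6* summed to 257 UPM. The data therefore go against the basal part of the label. It is called the basal-macrophage population below only to identify it, and its cells came from the caput (4), the corpus (10) and the vas deferens (1).

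Together the 8 genes took 0.553% of all UMIs in macrophages (0.530 to 0.577). By library the share was 0.605, 0.671, 0.445 and 0.550%. Clear cells followed with 0.288%, basal cells with 0.259%, stromal cells with 0.136%, principal cells with 0.107%, endothelial cells with 0.0955% and muscle cells with 0.0666%. Macrophages were highest among these cell types in each library, and the intervals of the share in macrophages lay above those of clear, basal, principal and stromal cells of the same library. In the basal-macrophage population the share reached 2.00% (1.82 to 2.19).

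**Figure D1:**
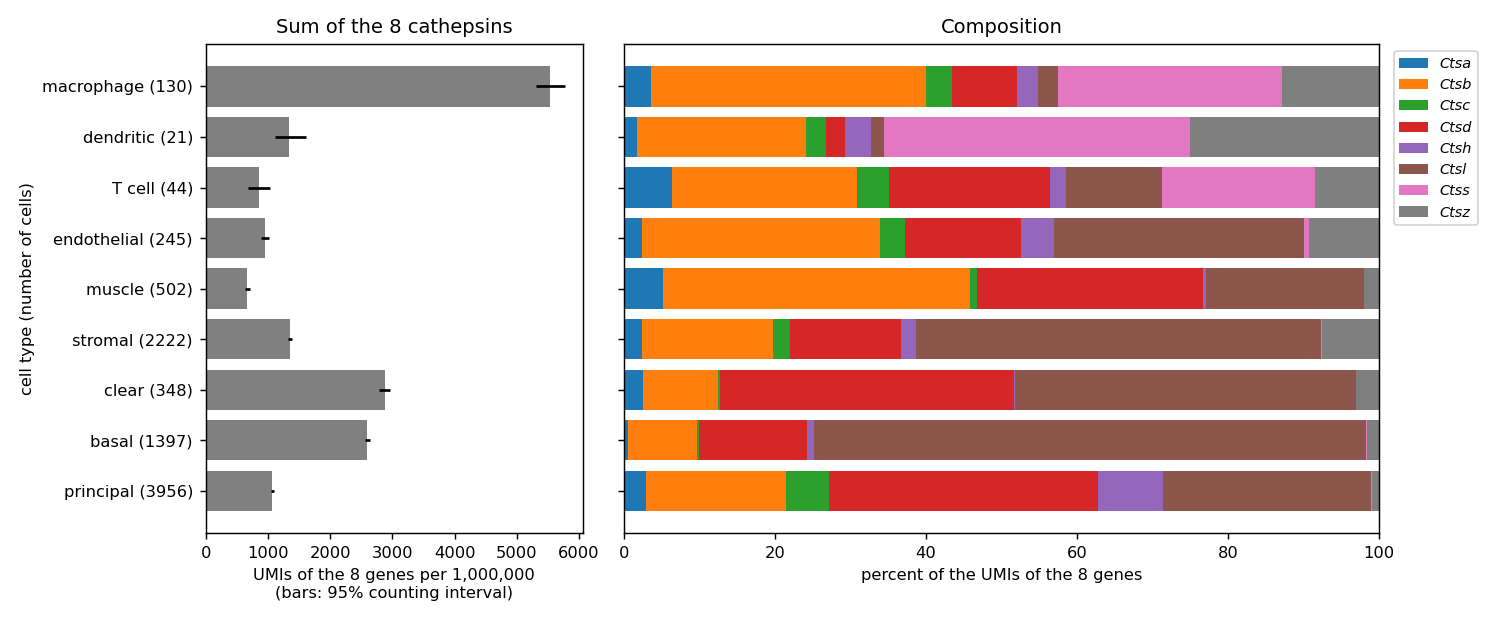
Sum of the 8 cathepsin genes (left, UMIs per 1000000 with 95% counting intervals) and the percent of that sum from each gene (right) in 9 cell types, with the number of cells in parentheses. The sum was 5534 in macrophages and 2877 in clear cells, the next highest, and *Ctsb* and *Ctss* filled most of the macrophage bar where *Ctsl* filled most of the basal bar.

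The make-up of that sum differed between cell types. In macrophages *Ctsb* gave 36.5% of the cathepsin UMIs, *Ctss* 29.6%, *Ctsz* 12.8% and *Ctsd* 8.58%, and *Ctsl* only 2.67%. In basal cells *Ctsl* alone gave 73.2%. Clear cells divided mainly between *Ctsl* (45.1%) and *Ctsd* (39.1%), and principal cells among *Ctsd* (35.6%), *Ctsl* (27.5%) and *Ctsb* (18.6%). Muscle cells had no *Ctss* UMI and *Ctsb* as their leading member at 40.6%.

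The 8 genes lie at 8 places on 6 chromosomes of GRCm38, the assembly also called mm10: *Ctsa* at chr2:164832873-164841032 (+ strand), *Ctsz* at chr2:174427493-174439039 (−), *Ctss* at chr3:95526786-95556403 (+), *Ctsc* at chr7:88278085-88310888 (+), *Ctsd* at chr7:142375911-142388038 (−), *Ctsh* at chr9:90054152-90076089 (+), *Ctsl* at chr13:64359337-64370890 (−) and *Ctsb* at chr14:63122462-63145923 (+). The 3′ end of *Ctsa* overlaps *Pltp*, that of *Ctsb* overlaps *Fdft1* and that of *Ctsz* overlaps *Nelfcd*, each on the other strand, and *Ctsd* overlaps the predicted gene *Gm49369* on its own strand. The sources used here do not state whether counting used the strand, so reads of these pairs may not be told apart. In macrophages, epithelial cells and stromal cells *Fdft1* was counted at 5.19, 140 and 10.8 UPM, *Nelfcd* at 2.60, 11.52 and 10.2, and *Pltp* at 93.5, 140 and 195. The part of their reads in the counts of *Ctsb*, *Ctsz* and *Ctsa* was not tested.

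The promoters were read for the E-box CACGTG, the core of the element through which TFEB acts on lysosomal genes and a site of other factors too. RefSeq promoter windows (250 bases before to 50 after a start, GRCm38.p6) were present for 6 of the 8 genes, and the letters CACGTG read the same on both strands. They occur in windows of 3 of the 6 genes, and of 8.09% of all 27025 gene symbols (7.15% of 32851 windows). All matches in the windows of the members are shown. The windows of *Ctsc*, *Ctss* and *Ctsz* hold no match, and *Ctsb* and *Ctsh* had no window. A relation between the matches and the levels was not tested. Each line gives 30 bases, 5′ to 3′ on the strand of the gene, with CACGTG in capitals. A match is a run of letters and no evidence of binding, and the absence of one says only that these letters are not in the window.
*Ctsa*, second of 2 windows, chr2:164833757-164833786 (+): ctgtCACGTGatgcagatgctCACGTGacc
*Ctsd*, first match, chr7:142388048-142388077 (−): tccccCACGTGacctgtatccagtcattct
*Ctsd*, second match, chr7:142387908-142387937 (−): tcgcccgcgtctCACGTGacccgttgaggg
*Ctsl*, chr13:64370739-64370768 (−): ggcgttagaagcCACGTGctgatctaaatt

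Macrophages were then compared with the epithelium, meaning principal, basal and clear cells together. By the 4-fold rule 5 of the 8 genes were higher in macrophages (*Ctsa*, *Ctsb*, *Ctsc*, *Ctss* and *Ctsz*) and *Ctsl* was lower. Of the 12462 genes compared, 3.84% were higher and 14.7% lower by the same rule. The median ratio of the 8 genes was 5.94, against 0.715 over all genes compared. Against stromal cells 6 genes were higher (the same 5 and *Ctsh*) and *Ctsl* was again lower, where 3.73% of 10875 genes were higher and 16% lower. There the median ratio was 6.09 for the 8 genes and 0.656 for all genes compared. The 2 comparisons share the macrophages. In both, a gene could enter on the UMIs of either group, while a higher call needed 20 UMIs in macrophages. Genes below that count could not be called higher, so 3.84% and 3.73% are lower limits for the genes that could. The medians over all genes include such genes too, while each of the 8 members had at least 57 UMIs in macrophages. They are thus not medians of genes with as many macrophage UMIs.

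*Ctss*, the protease of the MHC class II pathway, separated the cell types most widely. Its level in macrophages was 2418, 2473, 1678 and 1294 UPM. In epithelial cells it was 0 of 3393433 UMIs in the caput, which allows up to 0.884 UPM, and 0.692, 0.611 and 4.04 UPM in the corpus, cauda and vas deferens. The ratio over all libraries was 940 (652 to 1405), and against stromal cells it was 1774 (810 to 4852).

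The few epithelial *Ctss* UMIs were concentrated in few cells. All 30 came from 16 of 5701 cells, and 14 of them from a single cell. Macrophage marker UMIs were found in 2 of those 16 cells (12.5%) and in 2.48% of the epithelial cells without *Ctss*. The markers summed to 12.3 UPM in principal, 19.3 in basal, 2.74 in clear and 25.6 in stromal cells. An alternative left out 283 cells: 33 macrophages with markers of a non-immune type, and non-immune cells with macrophage markers. With these left out the ratio of *Ctss* to epithelial cells was 1815. Without the vas deferens library, which held 25 of the 30 UMIs, it was 4603, and with the basal-macrophage cells counted as basal it was 149.

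Outside macrophages *Ctss* was measurable in the other leukocytes. It reached 543 UPM in 21 dendritic cells and 172 UPM in 44 T cells, and 5.99 UPM in endothelial cells. The 7 macrophage markers summed to 1549 UPM in the dendritic cells, 1079 in the T cells and 251 in the endothelial cells, and their part in these *Ctss* levels was not tested. All 3 endothelial cells with a *Ctss* UMI also held a macrophage marker UMI, as did 14.5% of the endothelial cells without one. In 18 of the 34 populations no *Ctss* UMI was counted.

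*Ctsz*, a carboxypeptidase, had the next largest ratio to the epithelium. Macrophages had 1276, 738, 568 and 711 UPM, against 35.7, 42.0, 28.4 and 13.3 UPM in epithelial cells. Every library thus separated the cell types, with a ratio over all libraries of 25.5 (21.9 to 29.6). Stromal cells had 103 UPM, so that the ratio to them was smaller, 6.91 (5.98 to 7.97).

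*Ctsb*, the most abundant member in macrophages, lay between 199 UPM (principal cells) and 302 UPM (endothelial cells) in the other named types. Macrophages held 1209, 2008, 1489 and 2276 UPM, and epithelial cells held 249, 219, 209 and 210 UPM. Over all libraries macrophages were 9.20-fold higher than epithelial cells (8.50 to 9.94) and 8.59-fold higher than stromal cells (7.87 to 9.37). No population was without *Ctsb*, and the lowest, principal 5, held 122 UPM.

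*Ctsa*, the protective protein of the lysosomal sialidase complex, was lower throughout. Its 75 UMIs in macrophages gave 195 UPM, which was 6.86-fold the epithelial level (5.30 to 8.76) and 6.16-fold the stromal level (4.66 to 8.06). In the cauda, with 6 UMIs in macrophages, the interval of the ratio to epithelial cells ran from 0.906 to 5.71 and included 1.

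*Ctsc*, the dipeptidyl peptidase that activates granule serine proteases, stood at 189 UPM in macrophages, 5.02-fold the epithelial level (3.88 to 6.40). With means over cells in place of summed UMIs the ratio was 3.48, under the 4-fold rule. *Ctsh*, an aminopeptidase, stood at 156 UPM and was 2.57-fold higher than in the epithelium (1.95 to 3.34). Both of these genes had high levels in part of the principal cells, so the ratio to principal cells alone was 3.09 for *Ctsc* and 1.67 for *Ctsh*, and the ratio to basal cells 22.9 and 6.71. Without the vas deferens, whose principal cells were rich in it, *Ctsh* was 5.18-fold higher in macrophages than in epithelial cells.

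*Ctsd*, the main aspartic protease of lysosomes, did not mark the macrophages that the study named as such. They held 605, 765, 265 and 445 UPM, where epithelial cells held 470, 422, 576 and 364. The order was reversed in the cauda, and the ratio over all libraries was 1.08 with an interval (0.928 to 1.25) that included 1. Without the *Trem2* population, macrophages held less of it than the epithelium (ratio 0.652). With the basal-macrophage cells counted as macrophages the ratio was 1.56, above the interval over all libraries. Clear cells held 1124 UPM, more than macrophages as a whole.

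*Ctsl*, a broad endoprotease, was the one member lower in macrophages than in the epithelium as a whole and in stromal cells. It was counted 0 times in the 7 macrophages of the caput, which allows up to 202 UPM, and the other libraries gave 54.6, 126 and 197 UPM. Epithelial cells held 1279, 1432, 888 and 478 UPM. Macrophages were 6.45-fold lower than epithelial cells over all libraries (4.98 to 8.53), 12.8-fold lower than basal cells and 4.92-fold lower than stromal cells (3.79 to 6.51). The ratio to principal cells alone was 0.502, below 1 but short of the 4-fold rule. In the vas deferens the order was reversed, with 197 UPM in macrophages and 96.1 in principal cells. Leaving out the vas deferens took the ratio to epithelial cells from 0.155 to 0.0684 and that to stromal cells from 0.203 to 0.115. It also raised the ratios to stromal cells of *Ctsc* to 11.9, of *Ctsh* to 13.8 and of *Ctss* to 4161, and without the corpus that of *Ctss* was 1089.

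**Figure D2:**
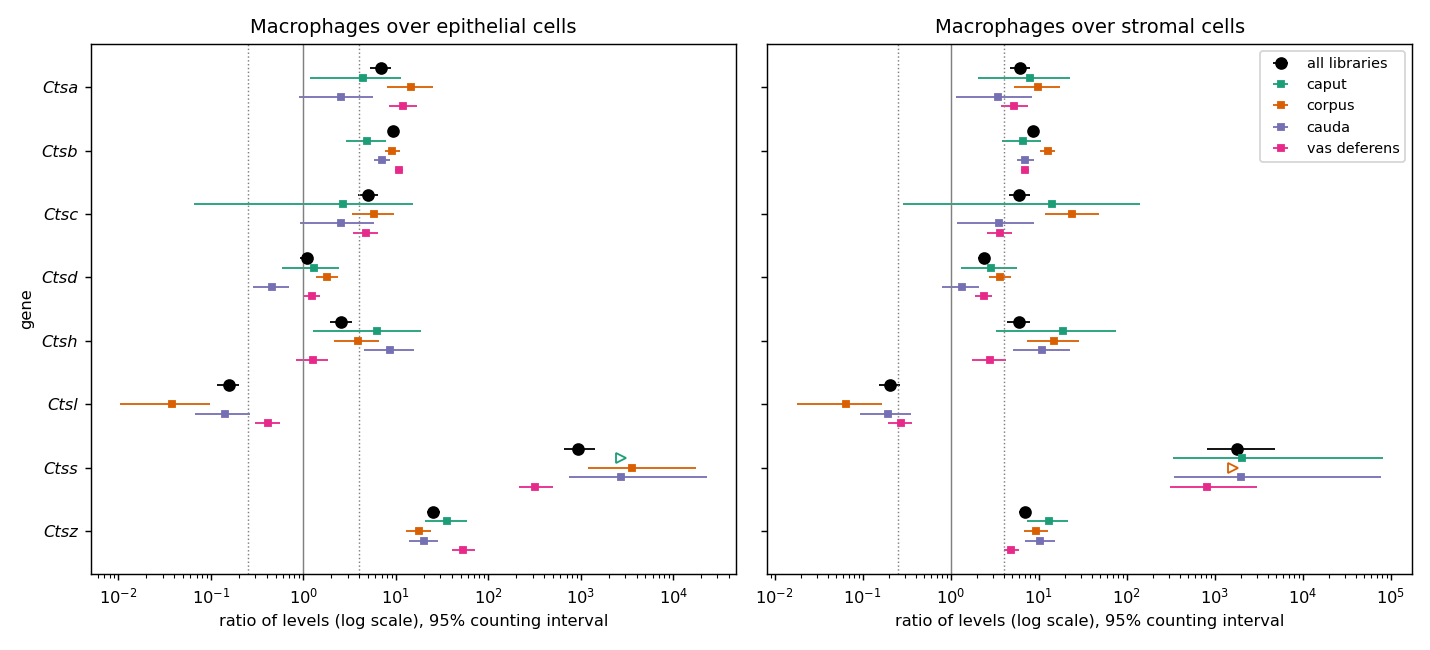
Ratio of the level in macrophages to that in epithelial cells (left) and stromal cells (right) for each gene, over all libraries (black) and in each library (colors), with 95% counting intervals on a log scale. Open triangles are lower bounds where the second group had no UMI, the solid line is a ratio of 1 and the dotted lines are 4-fold. The ratio of *Ctss* to epithelial cells was 320 or more in each library, that of *Ctsd* between 0.460 and 1.81, and that of *Ctsl* below 1 in the 3 libraries with a value.

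Cells were also compared at equal depth. After 1000 UMIs were drawn from each cell that had as many, *Ctsb* was found in 72.7% of 110 macrophages (63.4 to 80.8), *Ctss* in 60.0%, *Ctsz* in 40.9%, *Ctsd* in 21.8%, *Ctsc* in 17.3%, *Ctsa* in 14.5%, *Ctsh* in 13.6% and *Ctsl* in 11.8%. Without thinning these shares were 87.7, 80.8, 65.4, 39.2, 30.0, 29.2, 29.2 and 21.5%. *Ctsd* was found in more of the principal (31.3%), basal (28.3%) and clear cells (60.9%) than of the macrophages. Thinned in the same way, 0.0528% of principal and 0.0872% of basal cells held *Ctss*, and 0 of 238 clear cells did, which allows up to 1.26%. Before thinning the median depth was 2863 UMIs in macrophages, 934.5 in principal, 4370 in basal and 4430 in clear cells. At this depth a macrophage held a median of 4 UMIs of the 8 genes, with 23 in the highest cell and none in 10 of 110 cells, while principal cells held a median of 1.

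Within macrophages, the 26 *Trem2* cells were richer in cathepsins than the 104 other cells. *Ctsd*, *Ctsa* and *Ctsb* are among the genes by which the study described this population, so their direction here is not independent of that choice. With a rule of 2-fold and at least 20 UMIs, *Ctsa*, *Ctsd*, *Ctsh* and *Ctss* were higher and no member was lower. Of the 1614 genes compared, 4.46% were higher and 18.6% lower. Genes could again enter on the UMIs of either population, so each share is a lower limit for the genes that could be called that way. The median ratio of the 8 members was 2.14 and that of all genes compared was 0.901. The latter includes genes that entered on the UMIs of the other macrophages alone. The macrophage markers summed to 21528 UPM in the *Trem2* cells and 11090 in the others, and the part of this in the result was not tested.

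*Ctsd* had the largest ratio, 4.21 (3.12 to 5.70). In *Trem2* macrophages it stood at 1259, 1780, 606 and 983 UPM, against 0, 90.9, 151 and 384 UPM in the other macrophages. The *Trem2* cells were higher in each library, but the caput values rest on 3 and 4 cells. A single cell gave 39 of the 88 *Ctsd* UMIs of the other macrophages, and with the highest cell of each population left out, an alternative added after the data were seen, the ratio was 6.23. It was 2.73 without the corpus library, 11.1 without the vas deferens, 7.89 with means over cells and 7.39 with the mean of the libraries.

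*Ctss* was 3.13-fold higher in *Trem2* macrophages (2.66 to 3.67), with 3777, 4451, 3079 and 2816 UPM against 1163, 1159, 1211 and 1120.1 in the other macrophages. The intervals did not overlap in any library. *Ctsh* was 3.19-fold higher (1.85 to 5.48) on 27 and 33 UMIs, and *Ctsa* 2.33-fold (1.40 to 3.79) on 28 and 47. Without the corpus library the ratio of *Ctsa* was 1.86, and that of *Ctsh* was 2.66 but on fewer than 20 UMIs, so neither was called. Without the vas deferens the ratio of *Ctsa* was 6.93.

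The 4 remaining members did not pass the rule. *Ctsb* was 1.94-fold higher (1.67 to 2.26), with a ratio of 3.51 when the vas deferens was left out. In the vas deferens the other macrophages held 2138 UPM of *Ctsb*, against 909 to 1034 in the 3 epididymal libraries. *Ctsc* was 1.91-fold higher over all libraries, but this rested on the vas deferens (715 against 169 UPM), without which the ratio was 0.9895. The ratio of *Ctsl* was 1.66 (0.882 to 2.99) and that of *Ctsz* 1.17 (0.869 to 1.56), and both intervals included 1.

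**Figure D3:**
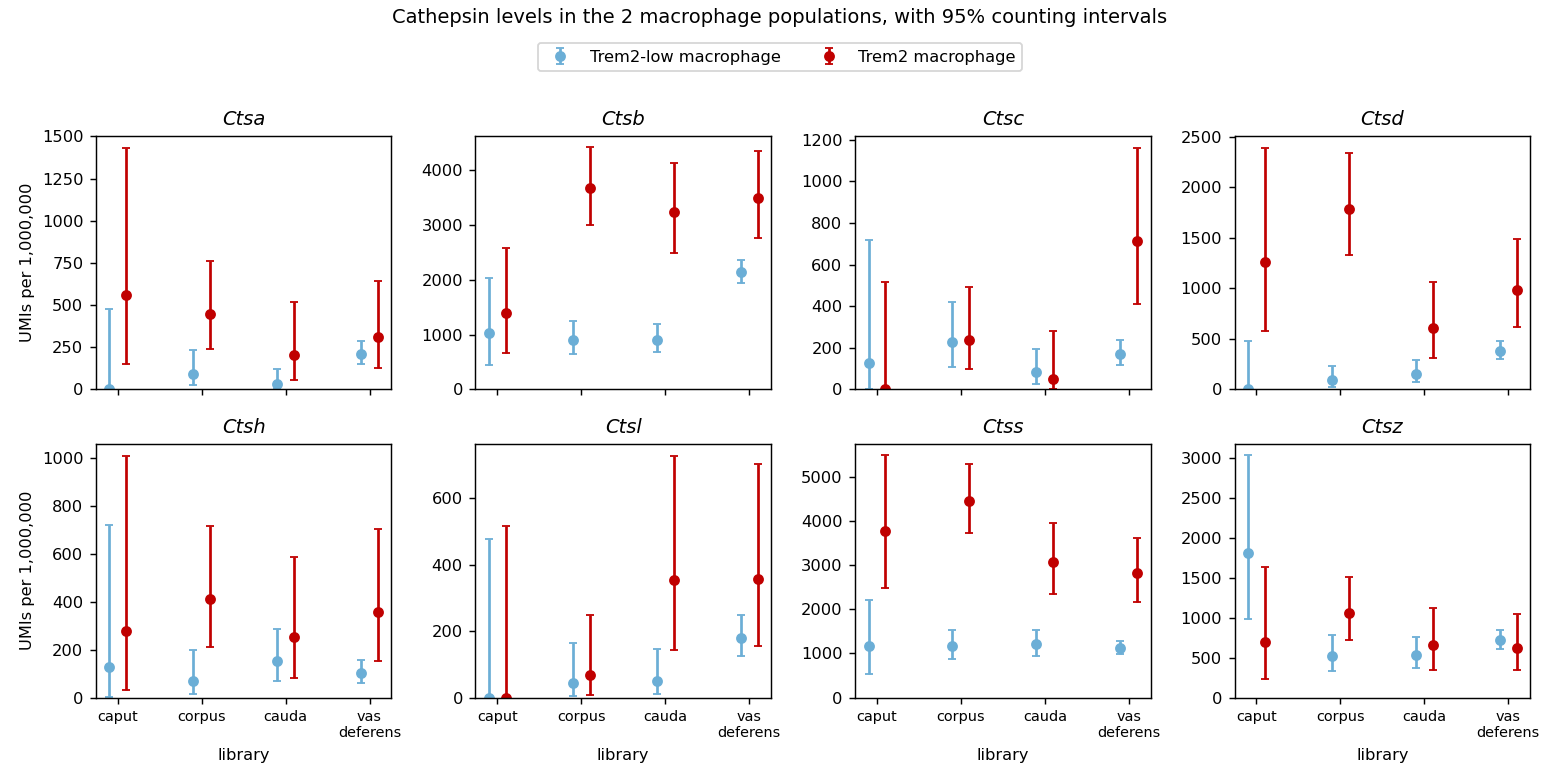
Level of each gene in *Trem2* macrophages (red) and the other macrophages (blue) in each library, in UMIs per 1000000 with 95% counting intervals, on linear axes that start at 0 and differ between panels. The red *Ctss* points, between 2816 and 4451, lay above the blue points in each library, while the intervals of *Ctsz* overlapped.

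The basal-macrophage population had the highest level among the 34 populations for every member but *Ctsl*. It held 6804 UPM of *Ctss* (159 UMIs), 4579 of *Ctsb*, 4151 of *Ctsd*, 1626 of *Ctsz*, 599 each of *Ctsc* and *Ctsh*, and 514 of *Ctsa*. Its interval lay above that of the next population for *Ctsb*, *Ctss* and *Ctsz*. It overlapped the next for *Ctsa*, *Ctsc*, *Ctsd* and *Ctsh*. No member was therefore highest in a macrophage population as the study named them, and 6 were when these 15 cells were left out of the order: all of the 8 except *Ctsd* and *Ctsl*. The cells had a median of 1035 UMIs, and 36 of the 159 *Ctss* UMIs and 32 of the 107 *Ctsb* UMIs came from 1 cell each. *Ctss* stood at 4955 UPM in the caput and 7886 in the corpus, above all macrophages of the same libraries, and the 1 cell of the vas deferens held none. All 8 cells with 1000 UMIs or more held *Ctss* after thinning.

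**Figure D4:**
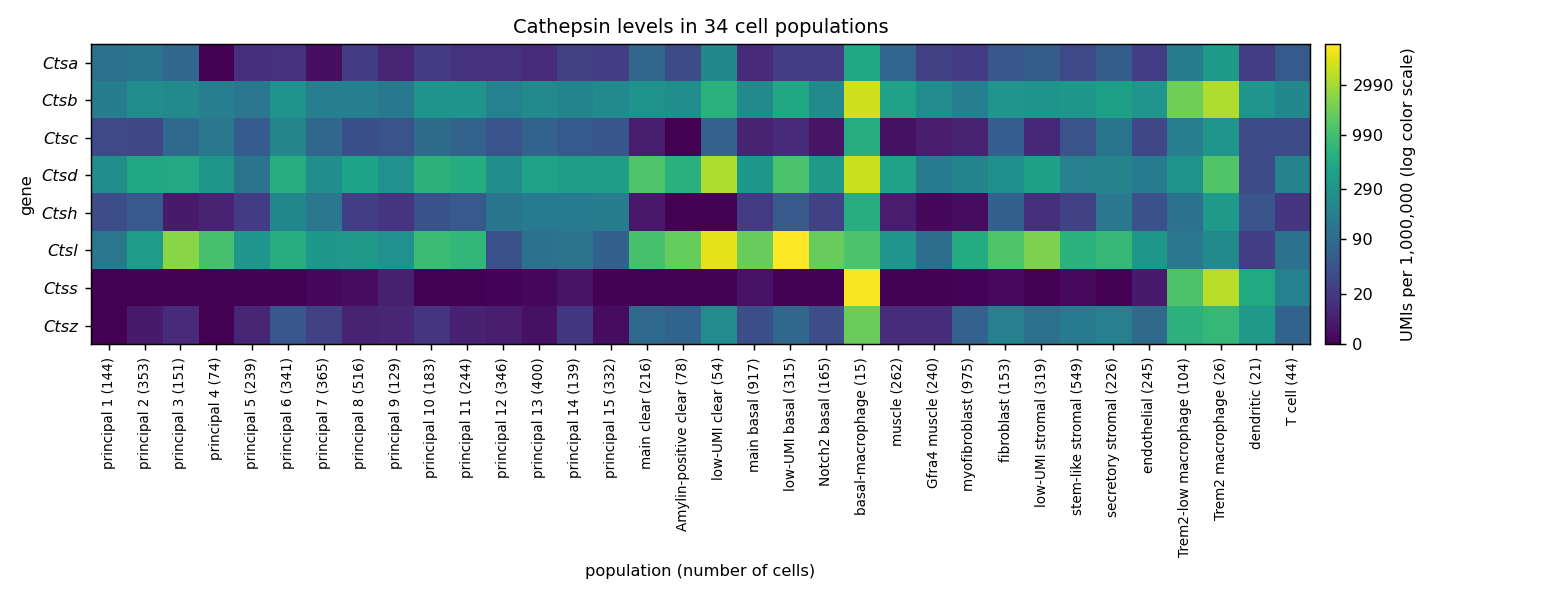
Level of the 8 genes (rows) in the 34 populations (columns, number of cells in parentheses) in UMIs per 1000000 on a log color scale. The *Ctss* row was dark outside leukocytes and the basal-macrophage population, and the brightest *Ctsl* fields were low-UMI basal (7323) and low-UMI clear cells (5520).

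*Ctsl* and *Ctsd* were the leading members in epithelial cells, and *Ctsl* and *Ctsb* in stromal cells. *Ctsl* was highest in the population of basal cells with few UMIs per cell, at 7202, 7802, 6970 and 6136 UPM. The main basal population held 1585 UPM and the *Notch2* basal population 1564. The low-UMI cells (median 900 UMIs against 5654 in the main basal population) were thus higher in each library than basal cells as a whole. In their 132 cells with at least 1000 UMIs the *Ctsl* level was 6951 UPM, and after thinning 97.0% of them held *Ctsl* against 72.0% of main basal cells. The study saw these cells differ in ribosomal protein genes as well as in depth and did not settle whether they are a population of their own or a technical product, which was not tested here.

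Clear cells showed the same division, together with *Ctsd*. Main clear cells held 1184 UPM of *Ctsd* and 1060.1 of *Ctsl*. The Amylin-positive clear cells held 643 and 1529.6 UPM. The 54 low-UMI clear cells held 3252 and 5520 UPM, and in their 16 cells with at least 1000 UMIs the levels were 4402 and 5173. The clear markers *Atp6v1g3*, *Atp6v0d2* and *Foxi1* summed to 1512 UPM there, against 8251 in clear cells as a whole, and the basal markers to 802 against 89.6, and their part in these levels was not tested. *Ctsa* in main clear cells (79.0 UPM) and *Ctsz* (84.5 UPM) were also above their levels in main basal cells (12.2 and 39.0), while *Ctsh* (5.51) was below its level there (20.8).

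Stromal cells carried *Ctsl* at 587, 839, 650 and 725 UPM. Fibroblasts (1216 UPM) and low-UMI stromal cells (2000 UPM) were above the myofibroblasts (568). The secretory stromal population, of whose 226 cells the vas deferens gave 213, held the highest stromal level of *Ctsc* (120 UPM) and *Ctsh* (132), where myofibroblasts held 9.38 and 2.61. Muscle cells had little of any member but *Ctsb* (271 UPM), *Ctsd* (199) and *Ctsl* (140).

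In principal cells, the absorptive and secretory cells that line the lumen, the members were distributed along the tract in different ways. Of the 7 members with at least 20 UMIs, 4 differed at least 4-fold between the highest and lowest library (*Ctsa*, *Ctsh*, *Ctsl* and *Ctsz*), where 28.8% of 9122 genes did. With means over cells in place of summed UMIs only *Ctsa* and *Ctsh* passed, and *Ctsl* and *Ctsz* did not. Each library is also 1 preparation, so region and preparation cannot be told apart.

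*Ctsa* was highest in the caput, at 98.6 UPM, against 7.05, 19.0 and 17.3 in the other libraries. The caput was 13.99-fold above the corpus (7.43 to 29.7), and the part of reads from the overlapping gene *Pltp* in this was not tested. The caput level of *Ctsa* was carried by principal 1, 2 and 3, the populations found only in the caput, with 99.97, 119.6 and 78.2 UPM. No other principal population exceeded 25.3.

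*Ctsh* showed a different pattern, with 38.9, 123, 28.2 and 128 UPM. The vas deferens was 4.55-fold above the cauda (3.40 to 6.22). Principal 6 and 7, mainly of the corpus, held 195 and 126 UPM, and principal 12 to 15, mainly of the vas deferens, held 121 to 150 UPM. *Ctsc* shared only the first of these, with 109 UPM in the corpus against 40.03, 54.0 and 57.5 elsewhere, and 190 UPM in principal 6. Its ratio of corpus to caput was 2.73 (2.04 to 3.68), under the 4-fold rule.

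*Ctsl* was at 489, 445 and 515 UPM in the principal cells of the 3 epididymal libraries and at 96.1 in the vas deferens, a difference of 5.36-fold (4.78 to 6.02) between cauda and vas deferens. Within the epididymis it was uneven between populations, with 2231 UPM in principal 3, 1078 in principal 4 and 915 in principal 10 but 125 in principal 1. *Ctsz* was low, at 4.64, 28.9, 12.1 and 6.19 UPM, and its 6.23-fold difference between corpus and caput rests on 41 and 8 UMIs.

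*Ctsb* and *Ctsd* varied least. *Ctsb* was 199.6, 188, 208 and 199 UPM, with an interval of the highest over the lowest (0.939 to 1.30) that included 1. *Ctsd* was 384, 331, 486 and 356 UPM, and its highest library was 1.47-fold its lowest (1.31 to 1.64). *Ctss* was counted 11 times in 3956 principal cells.

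**Figure D5:**
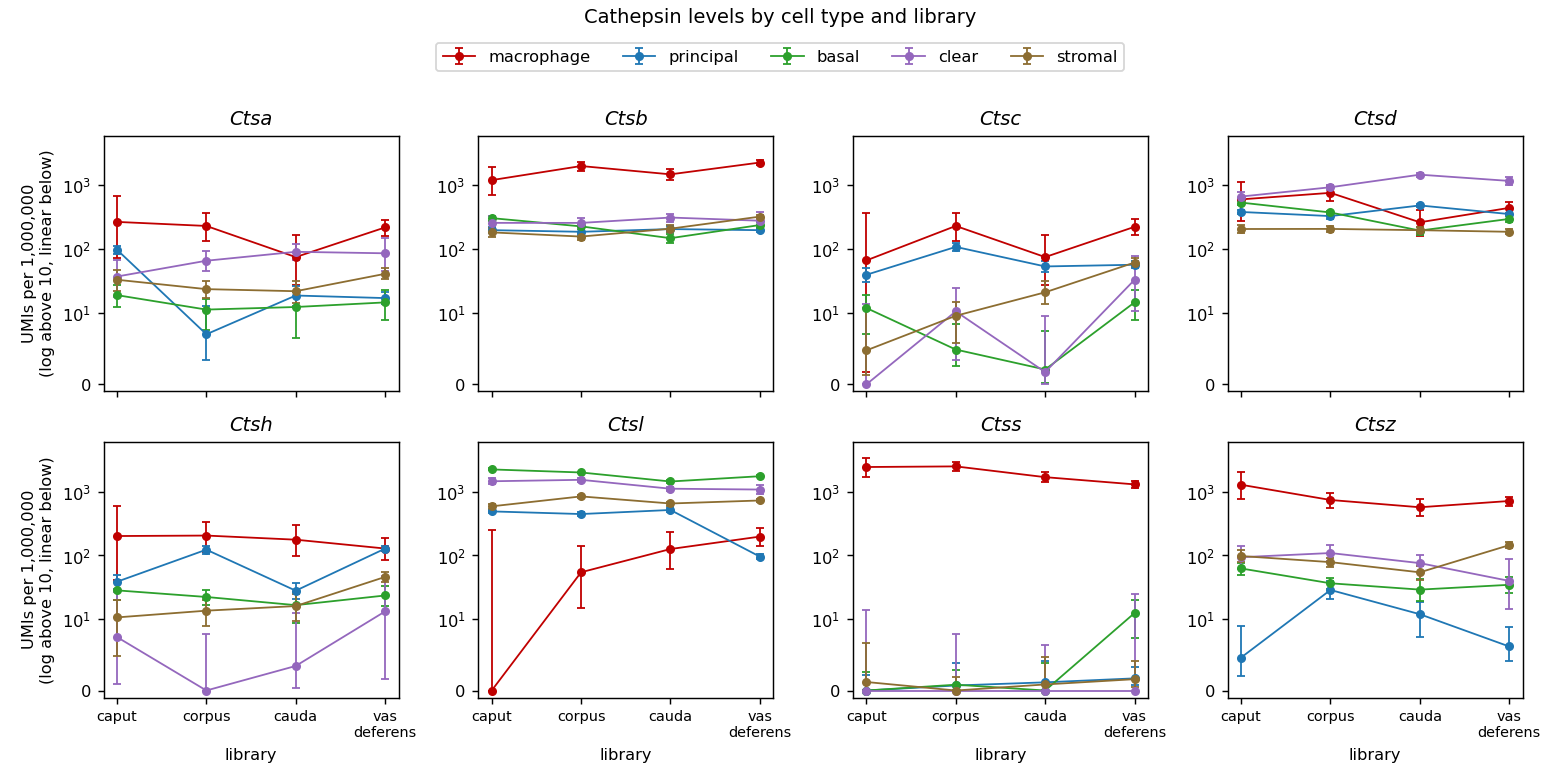
Level of each gene in macrophages (red), principal (blue), basal (green), clear (purple) and stromal cells (brown) of each library, in UMIs per 1000000 with 95% counting intervals, on an axis that is linear below 10 and logarithmic above. Macrophages were above the other types in all 4 libraries for *Ctsb*, *Ctss* and *Ctsz*, and below basal and clear cells for *Ctsl*. In principal cells *Ctsa* was highest in the caput (98.6) and *Ctsl* lowest in the vas deferens (96.1).

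Genes that work with the cathepsins were counted over lists of known members. Of 7 genes that act with *Ctss* in antigen presentation, 6 were at least 4-fold higher in macrophages than in the epithelium and 6 than in stromal cells, among them *H2-Aa* (2034-fold over the epithelium), *H2-Eb1* (857-fold) and *H2-Ab1* (783-fold). *Ifi30*, a thiol reductase, was the lowest of them at 3.44-fold. None of the 7 passed 2-fold between *Trem2* and other macrophages, where the *Ctss* level differed.

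By median ratio, other lysosomal genes were less tilted than the 8 cathepsins, whose median over the epithelium was 5.94. Of 28 lysosomal enzymes 5 were higher in macrophages than in the epithelium and none was lower, with a median ratio of 1.51. *Lipa*, the acid lipase (12.9-fold), *Acp5*, an acid phosphatase (11.1-fold), and *Arsb*, a sulfatase (7.44-fold), led them, and *Glb1*, the β-galactosidase, was the lowest with a ratio of 0.303. Of 15 membrane proteins and cofactors 2 were higher, *Cd68* (36.4-fold) and *Gm2a* (5.50-fold), followed by *Grn* at 2.68, and *Ctns* was the lowest at 0.458 on 2 UMIs in macrophages. Against stromal cells 5 of 26 enzymes and 2 of 15 membrane proteins and cofactors were higher and none was lower, led by *Lgmn* (19.7-fold), a cysteine protease that cuts cathepsin precursors, and *Cd68* (176-fold). Many genes of these lists, such as *Glb1* with 6, had fewer than the 20 macrophage UMIs that a higher call needs. The 8 cathepsins had at least 57, so the counts of calls are not on equal terms. Over all genes compared, 3.84% were higher than in the epithelium and 3.73% higher than in stromal cells.

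Of 9 genes of sorting and control none was higher and 2 were lower, with *Sort1*, the sortilin receptor, at a ratio of 0.0745 on 3 UMIs and *Igf2r*, the large mannose 6-phosphate receptor, at 0.183 on 2 UMIs. *M6pr*, the small receptor, had a ratio of 2.57, *Tfeb* of 2.67 on 7 UMIs and *Mitf* of 4.06 on 3 UMIs. Of the 9 genes only *M6pr*, with 70, had the 20 macrophage UMIs that a higher call needs. The others could not be called higher whatever their ratio. Over all genes compared, 14.7% were lower than in the epithelium and 16% lower than in stromal cells. *Cst3*, the secreted inhibitor cystatin C, was 4.18-fold higher in macrophages, the one of 3 inhibitors past the rule, and *Cstb*, its cytosolic relative, had a ratio of 1.92. *Cst6* had no UMI in macrophages. Against stromal cells 1 of the 9 genes of sorting and control was lower (*Igf2r*, 0.180) and none of 2 inhibitors passed.

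Of the other cathepsins 4 could be compared with the epithelium and none passed as lower. None could pass as higher, since each had fewer than the 20 macrophage UMIs that this call needs. *Ctsf* had a ratio of 0.334 on 5 UMIs, *Ctso* of 0.883 on 10 and *Ctsk* of 1.39 on 1 UMI (0.0342 to 8.35), and *Ctsq* had no UMI in macrophages. Against stromal cells *Ctsk*, known from osteoclasts and fibroblasts, was lower in macrophages, with 137 UPM in stromal cells and a ratio of 0.0190 (0.000481 to 0.106). Among the proteases that *Ctsc* activates, only *Elane* had at least 20 UMIs in macrophages or epithelial cells. Its ratio was 0.928 (0.517 to 1.54), on 15 UMIs in macrophages, too few for a higher call. *Elane* was nearly even over principal, basal, clear, stromal, muscle and endothelial cells, from 32.1 UPM in muscle to 47.4 in basal cells. The source of these counts was not tested.

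Between the macrophage populations 1 of 2 inhibitors and 2 of 8 membrane proteins and cofactors passed 2-fold, all higher in *Trem2* cells. Of all 1614 genes compared, 4.46% were higher by that rule. The 1 gene of sorting compared, *M6pr*, did not pass. With 15 UMIs in *Trem2* cells it could not be called higher, nor could *Gm2a* with 14. *Cst3* was 3.76-fold higher in *Trem2* macrophages (3.51 to 4.03), *Grn* 2.94-fold (2.05 to 4.19) and *Psap* 2.14-fold (1.74 to 2.61). *Grn* and *Psap* encode precursors that are cut into smaller proteins in the lysosome. Of the lysosomal enzymes, *Fuca1* stood at a ratio of 2.11 on 13 UMIs and *Lgmn* at 1.98.

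Across the 34 populations the 8 patterns fell unevenly together, as a description over populations that share libraries, depth and ambient correction. On log2(UPM + 10) values, Pearson's r was 0.808 between *Ctsb* and *Ctsz*, 0.791 between *Ctsb* and *Ctss*, 0.784 between *Ctsa* and *Ctsb*, 0.704 between *Ctsc* and *Ctsh* and 0.568 between *Ctsd* and *Ctsl*. It was lowest between *Ctsh* and *Ctsl*, at -0.314. Among 11614 genes, the pattern nearest to *Ctss* was that of *Pld4* (r = 0.994), followed by *Clec12a* and *Mpeg1*. The gene nearest to *Ctsb* was *Il1a* (0.890), to *Ctsz* *Cyba* (0.907), to *Ctsa* *P2rx7* (0.863), to *Ctsd* *Atp6ap1* (0.838), to *Ctsh* *Plau* (0.823), to *Ctsl* *Ctsf* (0.843) and to *Ctsc* *Lgmn* (0.726). *Ctsc* and *Ctsh* were each second in the other's order. The names depend on the measure of likeness, and 9 of the 24 nearest genes (3 for each member) were kept with Spearman's rho.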

How the data were processed

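Single-cell 3′ RNA libraries (10x Genomics) of the caput, corpus, cauda and vas deferens were analysed, 1 per region. The deposited values are UMI counts per gene and cell. The authors aligned reads to mm10 with HISAT2 2.0.4, counted UMIs on RefSeq genes with ESAT with reads of several alignments ignored, merged UMIs 1 base apart, kept cells of 350 to 15000 UMIs, removed ambient RNA with a modified SoupX (3.54% of UMIs) and clustered the cells. The deposited size factor per cell, a score the authors made with scran, was not used. The authors' populations were used without re-clustering, under shortened or descriptive names, with principal cells numbered as in the paper through equal cell numbers. UMIs were summed per population and library. Levels were given exact Poisson intervals, shares Clopper-Pearson intervals, and ratios intervals from the exact binomial test conditional on their sum, all at 95%. A count of 0 was taken as up to 3 UMIs (or cells). Shares of cells were counted after thinning to 1000 UMIs with a fixed seed. No p-value was computed, since regions have 1 library each and cell types were defined from the same counts. No doublet caller was run. As an alternative, macrophages with markers of non-immune types and non-immune cells with macrophage markers were left out. The basal-macrophage population was kept, and other mixtures of types were not screened.

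The genes named were all 8 members and, from each list of partners, the 3 with the highest ratio and the lowest, besides the 3 genes with the most similar pattern per member; *Igf2r* and the genes overlapping a member were named after their values were seen. The members and lists were chosen with earlier results of these data known. Other settings numbered 57, and 5 more were added after the data were seen. The scripts were tested on simulated data. Python 3.11.15, numpy 2.4.6, scipy 1.17.1, pandas 2.3.3 and matplotlib 3.10.9 were used, with GENCODE and RefSeq annotations of GRCm38. One gene that the naming rule gave among the lysosomal enzymes is not reported here.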

Additional observations from a re-analysis of the deposited data

How the results depend on the processing

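No paired analysis was possible because regions have 1 replicate each, and the cell types compared within a library were defined from the same counts. The number of members called against epithelial cells went from 5 to 6 at 2-fold, 3 at 8-fold, and 5 to 6 with single libraries left out. Against stromal cells it was 2 at 8-fold and 6 with each library left out. Between *Trem2* and other macrophages the number went from 4 to 1 at 4-fold and 2 with at least 50 UMIs, and ranged from 2 (without the corpus) to 6 (without the caput) with single libraries left out. In principal cells it was 2 (*Ctsa* and *Ctsh*) with means over cells and 1 at 8-fold. Members highest in a macrophage population numbered 3 among populations of at least 30 cells, 6 without the basal-macrophage population, an alternative added after seeing the data, and 0 to 1 with single libraries left out. The share of the 8 members in macrophages was 0.436% without the *Trem2* population, 0.402% in all immune cells and 0.526 to 0.581% with single libraries left out. The median share of macrophages with a UMI of a member was 19.5% as reported, 34.6% without thinning and 5.91% at 2 UMIs per cell. Of the 24 most similar genes 9 were kept with Spearman's rho and 14 with log2(UPM + 1). The ratios of 3 members crossed 1. *Ctsd* in macrophages over epithelial cells was 0.858 with means over cells, 0.913 without the corpus, 0.805 in all immune cells and 0.652 without the *Trem2* population, and *Ctsz* in *Trem2* over other macrophages was 0.847 with the mean of the libraries and 0.911 without the corpus, both with intervals that included 1 as reported. *Ctsc* in *Trem2* over other macrophages, whose interval did not, was 0.9895 without the vas deferens and at most 2.32 (without the corpus) with another library left out. Against a main value of 940, the *Ctss* ratio to epithelial cells ranged from 149 to 4603 over the alternatives. The highest *Ctsd* ratio to epithelial cells was 1.56, with the basal-macrophage cells counted as macrophages. Over all alternatives, 212 ratios and shares of single members stayed within their counting interval, 91 moved out of it and 1 reversed. Cells with at least 1000 UMIs left all 24 ratios of members within their intervals, the only alternative to do so. Without the vas deferens 15 ratios moved, 1 reversed and 8 stayed. With all immune cells 12 moved and 4 stayed, and with the mean of the libraries 11 moved and 13 stayed. Of the 78 main counts and shares, 60 stayed within 1.5 times or within their interval and 18 moved. Where a value moved by more, the cause was not tested. The caput holds 7 of the 130 macrophages, which limits its values.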
